A study of Mus musculus with 2 samples.

Results

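The translation initiation factor genes of mouse were described in induced erythroid cells. They were taken as the protein-coding genes whose GENCODE symbol begins with Eif and a digit, without the eIF2 kinases Eif2ak1 to Eif2ak4, the Y-linked Eif2s3y and the genes named as pseudogenes. The rule gave 50 genes of 69691 rows in the gene table, of which 21461 were nuclear protein-coding genes. It used names alone and no measured value.

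The RNA came from G1E-ER4 cells, an erythroid line made from Gata1-null mouse cells that carries GATA-1 fused to a hormone-binding domain of the oestrogen receptor. The cells had been kept in 10 nM 17beta-estradiol for 24 hours, which releases the fusion protein to act in the nucleus, and the labels give the line as male with an age of 0 day. Both libraries were single-end, poly(A)-selected and from this 1 condition, and the labels call them biological replicates 1 and 2, without saying whether they came from separate cultures. An uninduced library was not analysed here, so every value below is a level in induced cells and none is a response to the hormone.

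Depth came to 20412826 expected counts for replicate 1 and 18564086 for replicate 2. All 12 erythroid markers were detected, and adult globins held 10.6% of TPM (a level divided by transcript length and scaled to the same total in each library) in replicate 1 and 12.2% in replicate 2. None of 4 mast cell, 4 macrophage and granulocyte, 3 lymphoid and 3 fibroblast markers was detected. The megakaryocyte markers Itga2b, Gp9 and Pf4, of 4, were detected with a list sum of 25.9 and 28.0 TPM, and so were the progenitor markers Kit and Gata2, of 3, with 18.1 and 19.1 TPM, while Cd34 had 0 counts in both libraries. The Gata1 row cannot separate the fusion transgene from the endogenous gene.

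Translation of most mRNAs begins when the cap-binding complex eIF4F, made of the cap-binding protein eIF4E, the scaffold eIF4G and the helicase eIF4A, recruits a small ribosomal subunit that carries eIF1, eIF1A, eIF3, eIF5 and a ternary complex of eIF2, GTP and initiator tRNA. After the start codon is found, eIF2 leaves with GDP and is recharged by eIF2B, while eIF5B joins the large subunit. Erythroid cells make globin at high rates and tie initiation to haem through a kinase that phosphorylates eIF2, and eIF4E is held in check by its binding proteins, which mTORC1 phosphorylates.

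Nearly all of these genes were expressed. Of the 50 genes, 48 reached 1 TPM in both libraries, against 41.2% of nuclear protein-coding genes, and 24 reached 100 TPM in both, against 5.47%. Their median was 92.8 TPM, and that of all nuclear protein-coding genes was 0.08 TPM. Among detected genes alone the medians were 105 TPM for the initiation factors and 20.7 TPM for nuclear protein-coding genes, and 43 of the 50 lay above the second of these. Whether other groups of housekeeping genes share this position was not tested. Together the genes held 0.896% of TPM in replicate 1 and 0.931% in replicate 2, and the 5 highest of them took 37.9% and 40.9% of that sum. In RNA from whole cultures, fewer cells with a transcript and less of it per cell cannot be told apart.

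The 2 genes that were not detected both encode eIF4E relatives. Eif4e1b, known as an oocyte cap-binding protein, had 1 count in replicate 1 and 0 in replicate 2. Eif4e3 had 0 counts in both, which allows up to 3 counts, or 0.147 CPM (counts scaled to the library total) in replicate 1 and 0.162 CPM in replicate 2. The spread over the libraries was moderate: the median coefficient of variation was 10.5% for the detected initiation factors and 7.62% for detected nuclear protein-coding genes. In the order of levels, 33 of 49 neighbouring pairs had library values that overlapped, so most neighbours in the order were not separated beyond their spread. Values with ± below are the mean and SD of n = 2 libraries.

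**Figure D1:**
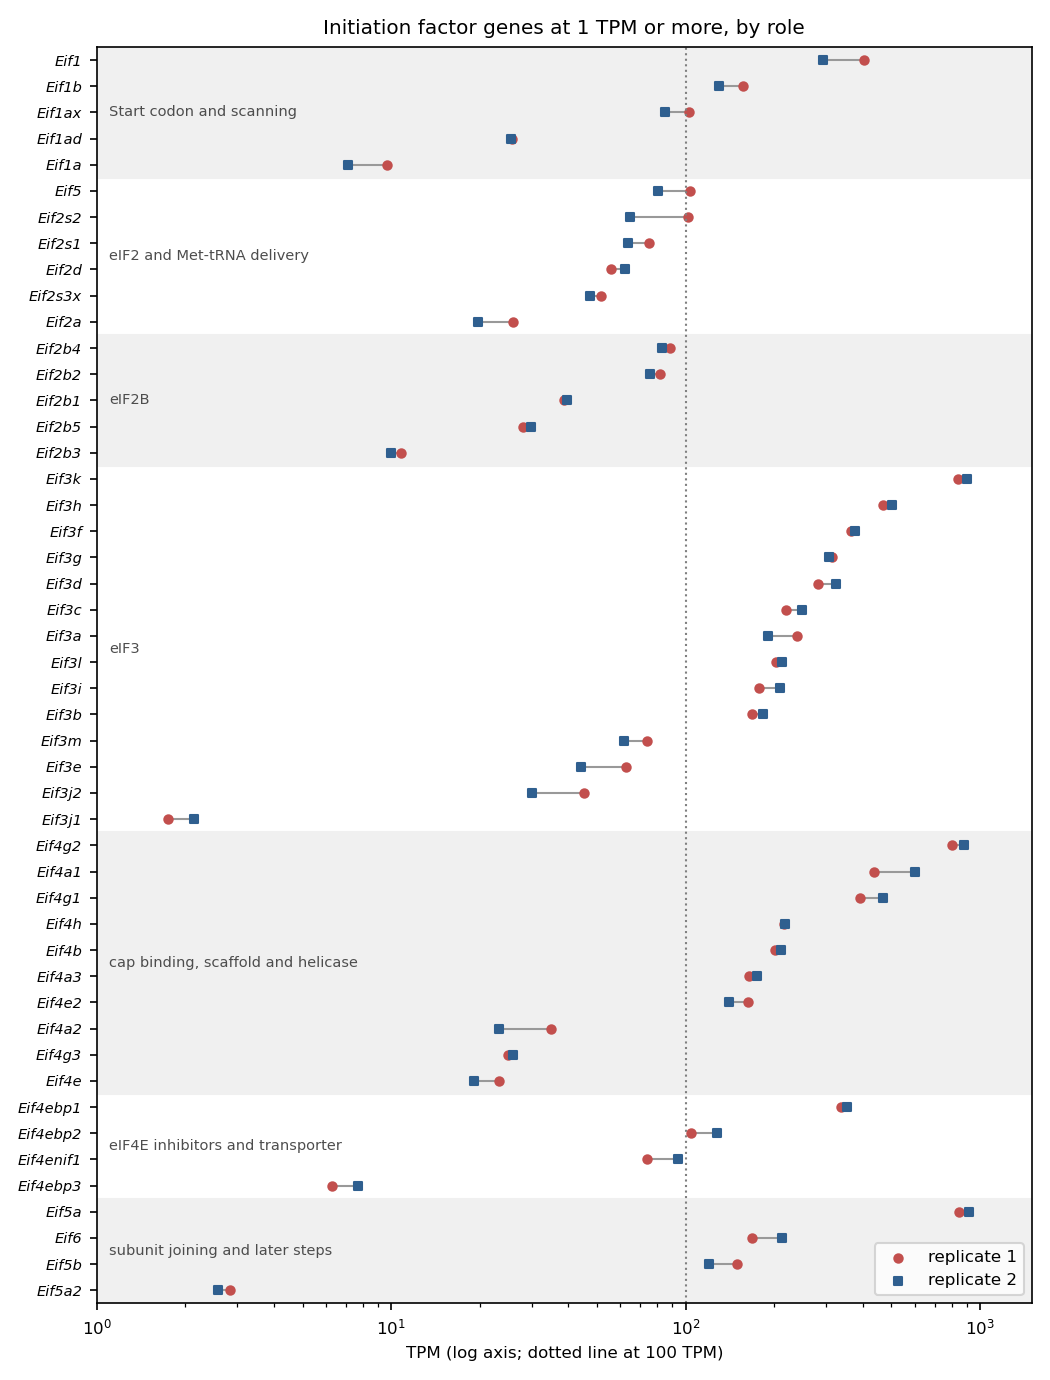
TPM of the 48 detected initiation factor genes on a log axis, grouped by role, with a circle for replicate 1 and a square for replicate 2 joined by a line. Eif5a, Eif3k and Eif4g2 lie highest, no eIF2 or eIF2B gene reaches 100 TPM in both libraries, and Eif3j1 and Eif5a2 lie lowest.

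Among the factors for scanning and start codon choice, the eIF1 paralogues were high and the eIF1A paralogues lower. Eif1, whose protein rejects wrong start codons, had 405 TPM in replicate 1 and 294 TPM in replicate 2 (349 ± 78.4). Its paralogue Eif1b had 157 and 130.2 TPM (143 ± 18.7). Every Eif1 value was above every Eif1b value. Eif1ax, the X-linked eIF1A gene, had 102 and 84.9 TPM (93.7 ± 12.4), and the related Eif1a had 9.68 and 7.14 TPM (8.41 ± 1.80). Most of the Eif1ax level lay on a short transcript without a coding sequence, as described below, and on coding transcripts the order of Eif1a and Eif1ax turned round. Eif1ad, named for an eIF1A domain, was the steadiest gene of the group at 25.7 and 25.6 TPM (25.6 ± 0.0566), although 15.3% of its exon bases lie opposite the antisense partner Banf1, which had 310.4 and 325 TPM.

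The eIF2 subunits stood within a narrow range. Eif2s1, the alpha subunit that stress kinases phosphorylate, had 75.0 and 63.5 TPM (69.2 ± 8.12). Eif2s2, the beta subunit, had 102 and 64.6 TPM (83.1 ± 26.1), and Eif2s3x, the X-linked gamma subunit that holds GTP and the initiator tRNA, had 51.7 and 47.3 TPM (49.5 ± 3.08). The highest subunit was 1.97 times the lowest in replicate 1 and 1.37 times in replicate 2, and the libraries did not put alpha and beta far enough apart to order them. Eif5, which activates GTP hydrolysis on eIF2, was the highest gene of this group by mean at 103 and 80.6 TPM (91.9 ± 16), with values that overlapped those of Eif2s2. Eif2d, a tRNA-delivering factor that works apart from eIF2, had 55.9 and 62.0 TPM (59.0 ± 4.34). Eif2a, an alternative initiator tRNA carrier despite its name, was lowest at 25.9 and 19.7 TPM (22.8 ± 4.42).

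The 5 subunits of eIF2B, the exchange factor that recharges eIF2, were less even than those of eIF2. The delta subunit gene Eif2b4 led with 88.5 and 83.1 TPM (85.8 ± 3.81) and the beta subunit gene Eif2b2 followed with 82.0 and 75.4 TPM (78.7 ± 4.65), with values that overlapped. The alpha subunit gene Eif2b1 had 38.7 and 39.4 TPM (39.1 ± 0.523). The catalytic epsilon subunit gene Eif2b5 had 28.0 and 29.8 TPM (28.9 ± 1.30), and the gamma subunit gene Eif2b3 10.8 and 9.96 TPM (10.4 ± 0.594). The top subunit was 8.19 times the bottom one in replicate 1 and 8.34 times in replicate 2, which is far outside the spread between libraries. The lead of Eif2b4 rests on transcripts that the GENCODE M21 annotation does not list. On those it annotates as protein-coding, Eif2b4 had 26.4 and 17.6 TPM, below Eif2b2 with 68.4 and 73.9 TPM, Eif2b1 with 38.5 and 39.4 TPM and Eif2b5 with 28.0 and 29.8 TPM. The group's sum was 243 ± 7.23 TPM, against 376 ± 53.5 TPM for the 6 genes around eIF2.

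The eIF3 genes formed the largest group by summed level, with 3458 TPM in replicate 1 and 3600 TPM in replicate 2 (3529 ± 101). eIF3 is the multi-subunit scaffold on the small ribosomal subunit. Eif3k, a small peripheral subunit, led with 842 and 906 TPM (874 ± 45). Eif3h, which helps bind specific mRNAs, had 469.6 and 504 TPM (487 ± 24.1). Eif3f, which pairs with the h and m subunits, had 365 and 376 TPM (371 ± 7.91). The values of these 3 genes did not overlap, and their order was Eif3k, Eif3h and Eif3f in both libraries. The place of Eif3f depends on which transcripts are counted. On transcripts annotated as protein-coding it had 193 and 166 TPM, below Eif3g with 313 and 307 TPM and Eif3d with 280.4 and 325 TPM. Within each library it was then also below Eif3c, Eif3a and Eif3l.

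A middle tier of eIF3 subunits ran from 168 to 325 TPM. Eif3g, an RNA-binding subunit, had 313 and 307 TPM (309.9 ± 4.67), and Eif3d, a subunit that can bind caps itself, had 280.4 and 325 TPM (303 ± 31.5). Eif3c, a core scaffold, had 219 and 248 TPM (233 ± 21). Eif3a, the largest core subunit, had 238 and 191 TPM (215 ± 33.3). These values of Eif3a and Eif3c overlapped, as did those of Eif3g and Eif3d. Eif3l, the partner of Eif3k, had 203 and 212 TPM (208 ± 6.82), which is below Eif3k in both libraries. The beta-propeller subunits Eif3i and Eif3b had 177 and 209.7 TPM (193 ± 23.3) and 168 and 183 TPM (175 ± 11.1).

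Apart from the j subunit, the lowest eIF3 subunits were Eif3m at 73.9 and 61.8 TPM (67.8 ± 8.54) and Eif3e at 62.5 and 44.0 TPM (53.3 ± 13.1). Among the 12 subunits other than j, the peripheral Eif3k included, the median was 224 TPM and 8 lay within 2-fold of it. The highest was 13.5 times the lowest in replicate 1 and 20.6 times in replicate 2, so subunits of 1 complex did not stand at equal mRNA levels. Both low subunits have pseudogene copies that hold part of their sequence: 70.8% of the Eif3e windows of 36 bases and 74.5% of the Eif3m windows were found in no other gene of the tables. The loosely bound j subunit is encoded by a pair of near-identical genes. Eif3j2 had 45.3 and 30.1 TPM (37.7 ± 10.7) and Eif3j1 had 1.74 and 2.14 TPM (1.94 ± 0.283). Since 93.1% of the Eif3j2 windows also occur in Eif3j1, the division of reads between them is uncertain.

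In the cap complex, the scaffold genes Eif4g1 and Eif4g2 and the helicase gene Eif4a1 were many times higher than the cap-binding gene Eif4e itself, whereas Eif4g3 and Eif4a2 were not. Eif4e had 23.2 and 19.1 TPM (21.2 ± 2.84). Its relative Eif4e2, which binds caps but does not hold eIF4G and acts in repression, had 163 and 140.2 TPM (152 ± 16). Eif4e2 was therefore higher than Eif4e in both libraries, by 7.18-fold on average. The gap is smaller when a pseudogene copy of Eif4e is counted with it, as given below.

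Eif4g2, a scaffold that lacks the eIF4E-binding region and serves cap-independent initiation, had 802 and 879 TPM (840.3 ± 54.6). Eif4g1, the main eIF4G, had 392 and 466 TPM (429 ± 52.6), and Eif4g3 had 25 and 25.8 TPM (25.4 ± 0.580). The order of the 3 scaffolds was the same in both libraries. The helicase cofactors were nearly equal, with Eif4b at 201 and 211 TPM (206 ± 7.50) and Eif4h at 216 and 217 TPM (217 ± 0.530).

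The eIF4A helicases differed more. Eif4a1, on chromosome 11 from 69666936 to 69672423 on the minus strand (GRCm38), had 435 and 599 TPM (517 ± 116). Eif4a2, on chromosome 16 from 23107444 to 23114136 on the plus strand, had 34.8 and 23.3 TPM (29.0 ± 8.14). Eif4a3, a relative that serves in the exon junction complex and not in eIF4F, had 164 and 175 TPM (169 ± 7.98). Every Eif4a1 value was above every Eif4a3 value, and these above every Eif4a2 value.

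Whether these levels belong to one gene or to several depends on how alike the sequences are, so stretches of the coding sequences are shown, read 5′ to 3′ from the GENCODE M21 transcripts, with capitals at the bases that differ within a pair. The paralogues Eif4a1 and Eif4a2 are 78.5% identical over 1040 aligned coding bases and share no coding window of 36 bases, the read length that the effective lengths in the tables imply. A coding read without errors can therefore be told apart. The 23 differences within bases 37 to 144 of the Eif4a1 coding sequence show how they are spread:
Eif4a1: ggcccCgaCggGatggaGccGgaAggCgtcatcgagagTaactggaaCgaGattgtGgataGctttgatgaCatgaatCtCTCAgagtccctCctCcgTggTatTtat
Eif4a2: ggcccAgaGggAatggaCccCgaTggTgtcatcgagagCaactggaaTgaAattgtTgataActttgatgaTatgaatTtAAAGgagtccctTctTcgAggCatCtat

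The processed pseudogene Eif4a-ps4 on chromosome 1 is of another kind. It matches the Eif4a1 coding sequence in 1217 of 1218 aligned bases, and the pair shares 96.7% of 36-base windows. The only difference is G534A, with the Eif4a1 base first and positions counted from 1 at the start of its coding sequence, shown here in bases 478 to 585:
Eif4a1: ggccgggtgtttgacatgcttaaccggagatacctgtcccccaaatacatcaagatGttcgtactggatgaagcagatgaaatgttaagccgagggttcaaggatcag
Eif4a-ps4: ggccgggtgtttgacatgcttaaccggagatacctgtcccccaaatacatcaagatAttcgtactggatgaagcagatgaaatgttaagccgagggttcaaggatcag

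The deposited tables gave Eif4a-ps4 222 TPM in replicate 1 and 155 TPM in replicate 2 (189 ± 47.4). Its counts were 26.4% of the summed counts of the pair in replicate 1 and 18.4% in replicate 2. The sum of both, chosen after the values were seen, was 658 TPM in replicate 1 and 754 TPM in replicate 2. With the copy added, Eif4a1 over Eif4a2 was 4.63 on the log2 scale and Eif4a1 over Eif4e was 5.06. Adding the copy can only raise these ratios. The sum therefore cannot show whether their order rests on how the pair was divided, and a division in favour of the copy was not tested.

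The pairs Eif1 with Eif1b and Eif5a with Eif5a2 also share no 36-base window between their coding sequences. Eif1 and Eif1b are 81.3% identical, and the first 108 coding bases hold 17 differences:
Eif1: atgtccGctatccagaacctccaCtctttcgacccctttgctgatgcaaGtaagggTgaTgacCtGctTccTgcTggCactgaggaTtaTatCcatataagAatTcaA
Eif1b: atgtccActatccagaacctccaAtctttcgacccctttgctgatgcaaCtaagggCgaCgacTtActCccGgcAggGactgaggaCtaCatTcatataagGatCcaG

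The differences are scattered one by one, so that no run of 36 coding bases escapes them and coding reads of Eif1 and Eif1b can be told apart. Of all Eif1 windows, 78.5% were found in no other gene of the tables. The gene that shares most is Emd, with 13.1% of the windows and 76.3 and 85.3 TPM. Eif5a and Eif5a2 are 76.0% identical, with 28 differences in the first 108 coding bases:
Eif5a: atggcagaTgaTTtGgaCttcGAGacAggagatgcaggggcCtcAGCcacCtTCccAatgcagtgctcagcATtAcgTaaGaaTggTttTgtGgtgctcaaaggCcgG
Eif5a2: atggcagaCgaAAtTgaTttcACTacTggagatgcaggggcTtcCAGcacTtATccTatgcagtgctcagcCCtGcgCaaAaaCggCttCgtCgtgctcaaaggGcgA

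Of the genes for proteins that bind and restrain eIF4E, Eif4ebp1 and Eif4ebp2 stood above Eif4e and Eif4ebp3 below it. Eif4ebp1 had 336 and 353 TPM (344 ± 12.5), and Eif4ebp2 had 104 and 128 TPM (116 ± 16.7). Eif4ebp3 was low at 6.28 and 7.74 TPM (7.01 ± 1.03) and rests on 71.4 and 80.2 expected counts. In the later M21 annotation 33.9% of its windows are found in no other gene, so its level is uncertain. All 4 Eif4ebp1 and Eif4ebp2 values lay above both Eif4e values. Eif4enif1, which encodes the eIF4E transporter, had 74.0 and 94.2 TPM (84.1 ± 14.3).

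Of the factors of subunit joining and later steps, Eif5a was the highest gene of all 50. It encodes the hypusine-carrying factor that helps ribosomes through difficult peptide bonds and in termination, and it had 851 and 916 TPM (883 ± 46.2). Its values overlapped those of Eif3k. The paralogue Eif5a2 had 2.83 and 2.59 TPM (2.71 ± 0.170). Eif6, which keeps the large subunit from joining too early, had 167 and 212 TPM (189.6 ± 31.3), and Eif5b, the joining GTPase, had 149 and 119.7 TPM (135 ± 21.1).

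The balance between related factors was expressed as a log2 ratio of TPM within each library, so that library scaling cancels. All 12 ratios had the same sign in both libraries. The widest was Eif5a over Eif5a2 at 8.23 in replicate 1 and 8.47 in replicate 2 (8.35 ± 0.17), a 326-fold difference. Eif4a1 over Eif4a2 was 3.65 and 4.69 (4.17 ± 0.73), and Eif4a1 over Eif4e was 4.23 and 4.97 (4.60 ± 0.52). Eif3j1 over Eif3j2, the pair whose reads cannot be divided firmly, was -4.70 and -3.82 (-4.26 ± 0.63). These 3 ratios had the widest spread of the 12.

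Steadier ratios described the cap-binding step. Eif4e over Eif4e2 was -2.81 and -2.87 (-2.84 ± 0.04). Eif4ebp1 over Eif4e was 3.86 and 4.21 (4.03 ± 0.25), so the Eif4ebp1 row was 16.4 times the Eif4e row. The processed pseudogene Gm7327 shares 8.47% of the Eif4e windows and had 13.6 and 8.62 TPM. Eif4e and this copy summed to 36.8 and 27.8 TPM, still below Eif4e2 and Eif4ebp1. With the sum, every ratio against Eif4e, that of Eif4a1 included, is smaller in size. The division of reads between Eif4e and the copy was not tested. Eif4ebp1 over Eif4ebp2 was 1.69 and 1.47 (1.58 ± 0.16). Eif4g1 over Eif4g3 was 3.97 and 4.17 (4.07 ± 0.14).

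Eif4g1 over Eif4g2 was -1.03 and -0.91 (-0.97 ± 0.08), which makes Eif4g1 the lower by 1.96-fold. The call holds per length and not per read: in counts not divided by length the ratio was 0.29, with effective lengths of 3466 and 3041 bases for Eif4g1 and 1493 and 1226 bases for Eif4g2. Eif4b over Eif4h was -0.11 and -0.04 (-0.07 ± 0.05), a 1.05-fold difference that turned to 0.60 without division by length, so the pair has no firm order. Eif1 over Eif1b was 1.37 and 1.17 (1.27 ± 0.14).

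Eif1a over Eif1ax was -3.40 and -3.57 (-3.49 ± 0.12), which puts Eif1a 11.2-fold below Eif1ax when all transcripts are summed. On transcripts annotated as protein-coding the same ratio was 0.37 and 0.48 (0.42 ± 0.08), with Eif1a at 9.68 and 7.14 TPM and Eif1ax at 7.50 and 5.12 TPM. The direction thus depended on which transcripts were counted. It was the only one of the 12 ratios to change sign in that way.

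**Figure D2:**
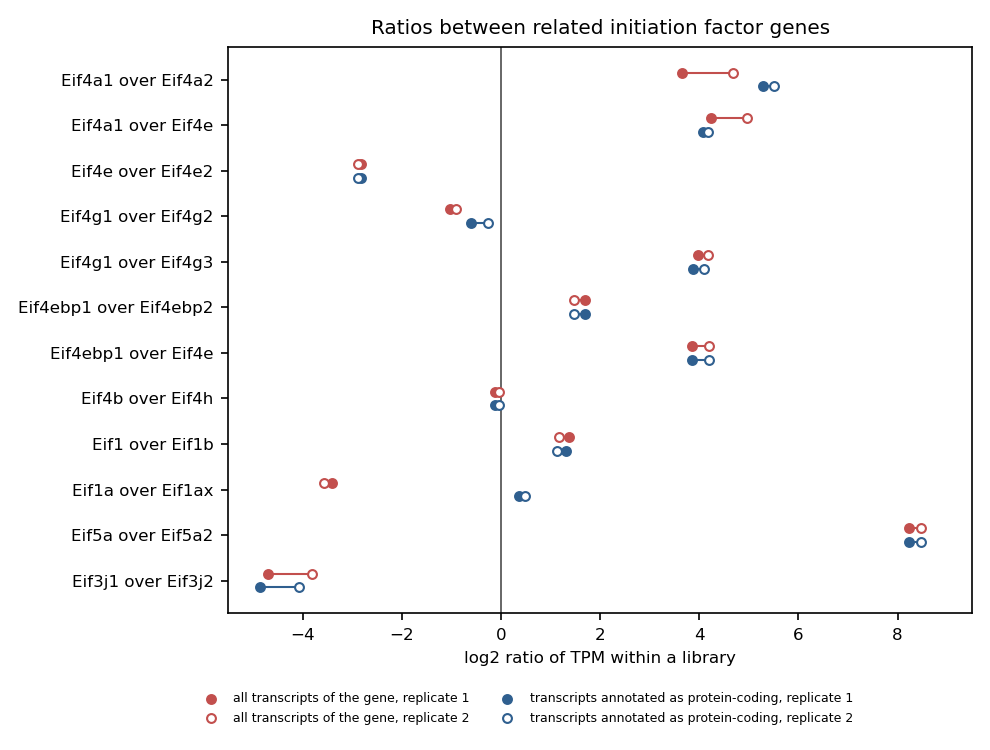
The 12 log2 ratios of TPM between related initiation factor genes, with all transcripts of a gene in red and protein-coding transcripts alone in blue, filled for replicate 1 and open for replicate 2. Eif1a over Eif1ax lies near -3.5 with all transcripts and above 0 with coding ones, and Eif4a1 over Eif4a2 moves up to 5.40 and closes its gap between the libraries.

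The transcript tables show on which isoform each level lay. Of the 48 genes that reached 20 expected counts in each library, 19 had 1 listed transcript, and 34 had more than 90% of their TPM on transcripts that GENCODE M21 annotates as protein-coding. In 7 genes the coding share was under 50%, and in 1 of these, Eif2b4, the rest lay on 6 transcripts that M21 does not list, so its class is unknown. Reads of overlapping transcripts are divided by estimation, and a short transcript turns few counts into a high TPM. For several genes the coding share of counts is therefore given beside that of TPM. The same transcript counts were not made over all nuclear protein-coding genes. Whether any of them, here or below, is particular to initiation factors was not tested.

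Eif1ax, on chromosome X from 159372178 to 159389928 on the plus strand, was the most extreme. Eif1ax-202, a retained-intron transcript of 416 bases, held 92.7% of its TPM in replicate 1 and 94.0% in replicate 2 (93.3% ± 0.912). The coding Eif1ax-201, with 5172 bases, held 7.32% and 6.03%. In counts the coding transcript held 51.6% and 46.4%, so the split by TPM rests on the difference in length as well as on reads. The gene's TPM of 93.7 is therefore mainly that of a non-coding model.

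Eif5b did not have that difference in length. Its retained-intron transcript Eif5b-202, of 5788 bases, held 84.2% of TPM in replicate 1 and 81.2% in replicate 2 (82.7% ± 2.11). The coding Eif5b-201, of 7797 bases, held 15.9% and 18.4%, which is 23.7 and 22.0 TPM. Its share of counts was 20.3% and 23.4%, close to its share of TPM. Of the Eif5b exon bases, 16.8% lie opposite the antisense gene Rev1, at 24.2 and 18.9 TPM.

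Eif4a2 was spread over 24 listed transcripts, the most of any of the 50 genes. Coding transcripts held 28.8% of its TPM in replicate 1 and 32.6% in replicate 2 (30.7% ± 2.67), and the leading Eif4a2-202 held 27.4% and 30.9%. The rest lay on transcripts of other classes, retained-intron and nonsense-mediated decay among them, of at most 16.1% each. In counts, coding transcripts held 50.2% and 54.7% of the gene. On coding transcripts alone, Eif4a2 stood at 10.0 and 7.58 TPM and Eif4a1 stood at 393 and 344 TPM, a ratio of 5.29 and 5.50 (5.40 ± 0.15), or 42.2-fold.

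That comparison also turned the library difference of Eif4a1 round. Eif4a1-213, the coding transcript, had 393 TPM in replicate 1 and 344 TPM in replicate 2, or 90.2% and 57.5% of the gene's TPM. In counts the coding share was 93.1% and 73.6%. Eif4a1-201, an 813-base transcript annotated for nonsense-mediated decay, had 24.2 TPM in replicate 1 and 235 TPM in replicate 2, with 302 and 2669 expected counts. The higher Eif4a1 total of replicate 2 thus lay on this transcript and not on the coding one. Of all 14 genes with 90% or less of TPM on coding transcripts by mean, Eif4a1 had the largest SD of that share, 73.8% ± 23.1.

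Further genes led with a transcript that has no coding sequence in M21. Eif6-205, a processed transcript of 402 bases, held 31.5% of Eif6 TPM in both libraries. The coding share of Eif6 was 49.4% and 41.0% of TPM, and 68.1% and 57.1% of counts. Eif4a3-203, of 466 bases, held 41.6% and 44.0% of TPM. The coding share of Eif4a3 was 56.1% and 51.5% of TPM, and 77.7% and 74.7% of counts. Eif4enif1-212, a retained-intron model of 297 bases, held 46.5% and 55.0% of TPM, although coding transcripts held 91.6% and 89.1% of the gene's counts. These 3 leading models are short, and with Eif1ax-202 and Eif5b-202 they make 5 genes whose leading transcript was non-coding in both libraries.

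The leading transcript differed between the libraries in 4 genes. Eif3f was led by the coding Eif3f-201 with 52.9% in replicate 1, and by the 439-base retained-intron Eif3f-203 with 55.6% in replicate 2. In counts the coding share of Eif3f was 87.3% and 82.8%. Eif2s2-204 led with 50.6% in replicate 1 and Eif2s2-201 with 57.4% in replicate 2, both coding. Eif4g1-203 led with 32.2% in replicate 1 and Eif4g1-208 with 27.5% in replicate 2, both coding, and 22 transcripts share that gene. In Eif2b4 the leads were 2 different transcripts outside M21.

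Some of the highest genes were split among several transcripts. Eif5a was coding throughout, with Eif5a-213 at 54.3% and 60.7% (57.5% ± 4.48). Eif4e2 was coding throughout as well, with Eif4e2-204 at 53.2% and 66.9% (60.1% ± 9.64). Eif4g2 was led by the 742-base coding Eif4g2-203 with 45.2% and 43.7% (44.4% ± 1.04). The coding share of Eif4g2 was 69.1% and 59.4% of TPM, and 86.2% and 77.6% of counts. Counting coding transcripts alone moved Eif4g1 over Eif4g2 to -0.43 and kept Eif4g1 lower. Short models weigh in that order. Eif4g2-203 had 362 and 384 of the 554 and 522 coding TPM of Eif4g2. The 635-base Eif4g1-208 had 98.3 and 128 of the 365 and 439 coding TPM of Eif4g1. The order on longer coding transcripts alone was not tested. Counting coding transcripts alone also took Eif4a3, Eif5b and Eif6 below 100 TPM in at least 1 library, and 21 of the 24 genes stayed above.

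**Figure D3:**
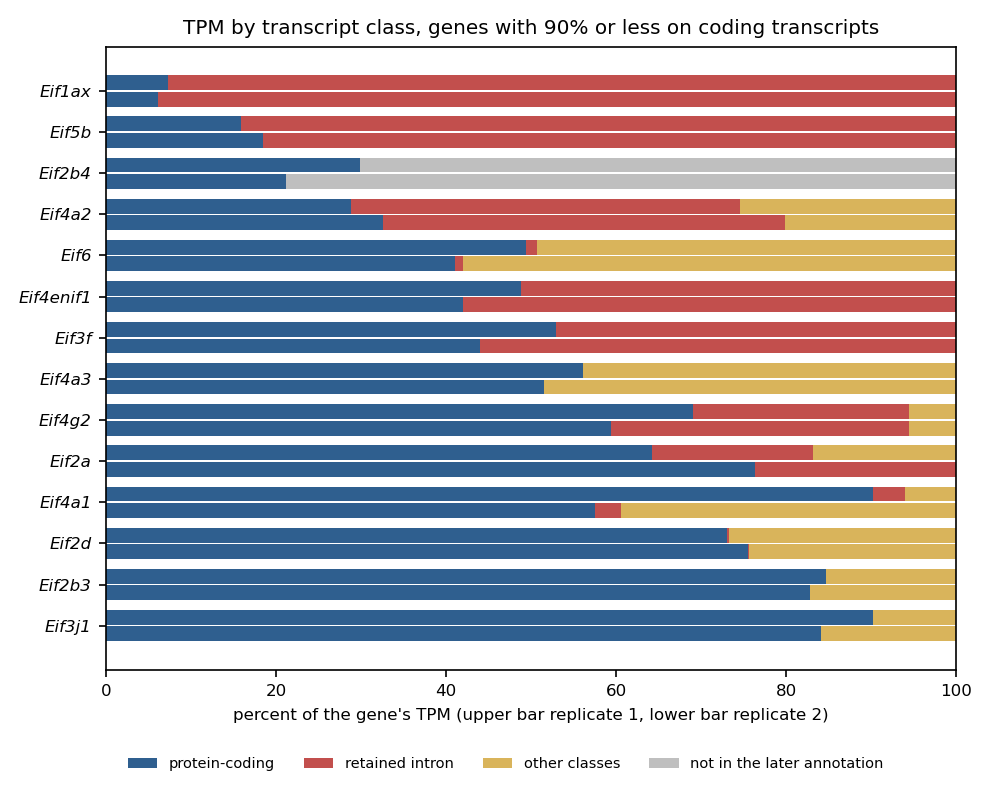
Percent of each gene's TPM on transcripts of 4 annotation classes, for the 14 genes with 90% or less on coding transcripts by mean, with replicate 1 above replicate 2. Other classes include processed and nonsense-mediated decay transcripts. Eif1ax and Eif5b are mostly retained-intron, Eif2b4 mostly on transcripts that are not in the later annotation, and Eif4a1 is the gene whose bars differ most between the libraries.

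Some of the genes host other genes. A small nucleolar RNA gene lies within 6 of the 50 (Eif4g2, Eif4a1, Eif4g1, Eif3a, Eif5 and Eif4a2), 13 such genes in all, against 2.04% of nuclear protein-coding genes. Eif4a2 holds 5 of them and Eif4a1 holds 3. Genes of this kind overlap 9.57% of the exon bases of Eif4a2 and 6.62% of those of Eif4a1 on the same strand. The snoRNA rows that share most with Eif4a1 and Eif4a2 had at most 3.64 TPM in either library.

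Sequence held in common with other genes was limited for most of the set. The median gene had 97.0% of its 36-base windows in no other gene of the tables, and 28 of 50 had more than 95%. Under 50% of windows were unique in Eif3j2 with 5.72% and Eif3j1 with 47.4%. Eif2s3x had 64.8%, with a pseudogene on the same chromosome that held 0.39 and 0 TPM. Eif3d had 76.6%, and 43.3% of its exon bases lie opposite Gm17638 on the other strand, which had 0.85 and 0.76 TPM. Whether counting used strand is not given in the sources used here, so antisense pairs cannot be fully separated.

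The libraries themselves differed for some of the genes. Of 48 genes with at least 50 scaled counts on average, 9 were over 25% apart (the higher library over the lower by more than that share), which is 18.8% of them, against 16.9% of the 9352 genes at that depth. Among the 8587 nuclear protein-coding genes at that depth the share was 14.5%. The share of the initiation factors was thus near the first background and somewhat above the second. All 9 were higher in replicate 1, where the share over the 9352 genes was 13.2%. Of the 48, 0 were higher in replicate 2, where it was 3.65%.

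The 9 belong to several complexes. As a ratio of scaled counts, replicate 2 over replicate 1, Eif3j2 stood at 0.668 (95% interval 0.617 to 0.722) and Eif2s2 at 0.685 (0.645 to 0.727). Eif4a2 followed at 0.696 (0.623 to 0.776) and Eif3e at 0.705 (0.650 to 0.765). These intervals are exact Clopper-Pearson intervals and cover counting error only. Eif1 stood at 0.730 (0.705 to 0.755), Eif1a at 0.735 (0.612 to 0.881) and Eif2a at 0.758 (0.680 to 0.844). Eif1ax at 0.761 (0.696 to 0.832) and Eif5 at 0.776 (0.745 to 0.809) completed the set. All intervals lay below 1, but the 9 were picked by these same counts, so the intervals are no separate support. Some genes within 25% also had intervals below 1, such as Eif3a (0.787 to 0.822) and Eif5b (0.787 to 0.827). Others did not, such as Eif3g (0.943 to 1.02). In the other direction Eif4ebp3 reached 1.24 (0.890 to 1.73) and Eif3i 1.19, with an interval that began at 1.14. None of the 48 was over 1.5-fold apart. By deposited TPM, 11 genes were over 25% apart, and 8 of them were shared with the count ratio. The others, Eif4a1, Eif4enif1 and Eif6, were higher in replicate 2. The share over all genes by TPM was not counted.

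The differences moved with base composition. The mean GC content of the transcripts had a median of 42.0% in the 9 genes (40.1% to 50.9%) and 51.5% in the 39 others (38.8% to 56.9%), and 50.4% in nuclear protein-coding genes. Across the 48 genes, GC content and the log2 ratio had a Pearson r of 0.69 and a Spearman rho of 0.62, and transcript length an r of -0.10. Across 8579 nuclear protein-coding genes the values for GC content were 0.50 and 0.56, so the relation was not particular to initiation factors. These correlations are across genes of the same 2 libraries and genes are not independent replicates. The part of GC content in the differences was not tested.

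**Figure D4:**
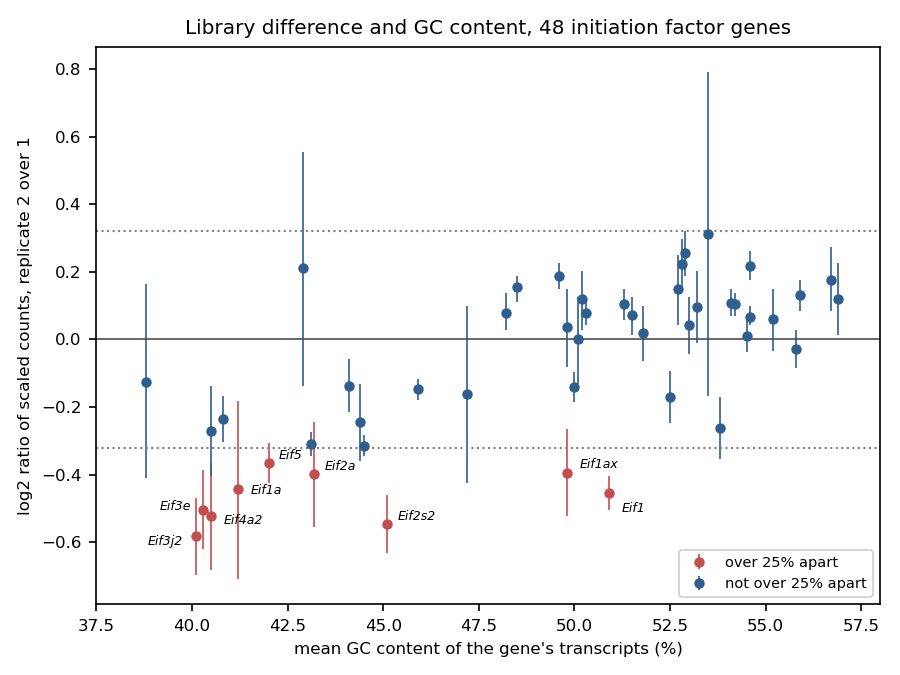
Log2 ratio of scaled counts, replicate 2 over replicate 1, against the mean GC content of the transcripts for 48 initiation factor genes, with exact 95% counting intervals and dotted lines at 25% apart. The 9 genes over the line, in red, are all lower in replicate 2, and 7 of them lie at 45.1% GC or less.

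Copies moved with some of these differences. The pseudogene Gm9892, which holds 11.3% of the Eif2s2 windows, had 46.8 TPM in replicate 1 and 14.8 TPM in replicate 2, and the summed counts with Eif2s2 gave a ratio of 0.611. With Eif3s6-ps2 at 31.0 and 18 TPM added, Eif3e stood at 0.699. Adding Gm7327 to Eif4e gave 0.807, and adding Eif4a-ps4 to Eif4a1 gave 1.00. These sums were chosen after the values were seen. With these copies added, Eif2s2 and Eif3e were still over 25% apart. Only pseudogene copies at 5 TPM or more in both libraries were added. Eif3j2, which shares most of its windows with Eif3j1, was thus left as it was. The part of shared reads in the library differences was not tested. Of the 28 genes with over 95% unique windows, 3 were more than 25% apart, namely Eif2a, Eif1ax and Eif5.

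The neighbours of the initiation factors in the translation pathway were nearly all present: 47 of 49 listed partners reached 1 TPM in both libraries, against the same 41.2% background. The poly(A)-binding protein gene Pabpc1, which bridges the tail to eIF4G, had 2587 and 2570.0 TPM (2578 ± 11.7), above every initiation factor. The translational regulator Larp1 had 214 and 223 TPM (218 ± 6.57). Among elongation factors, Eef1a1 had 6900 and 7292 TPM (7096 ± 277) and Eef2 had 2799 and 3007 TPM (2903 ± 147). Both lay above every initiation factor. The genes below 1 TPM were Eef1a2, with 0 counts in both libraries, and Gspt2, with 0 and 1.

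Regulators of the factors described above ranged from high to low levels, with Ppp1r15a the highest of those named here. Ppp1r15a, which directs a phosphatase to eIF2 alpha after stress, had 504 and 626 TPM (565 ± 86.2), and its constitutive relative Ppp1r15b had 105 and 104 TPM (104 ± 0.707). Both lay above Eif2s1 in both libraries. The eIF4E kinase genes Mknk1 and Mknk2 had 156 and 171 TPM (163 ± 10.9) and 82.1 and 93.7 TPM (87.9 ± 8.17), above Eif4e. The hypusine enzymes Dohh and Dhps, which modify eIF5A, had 67.3 and 65.7 TPM (66.5 ± 1.17) and 24.9 and 25.9 TPM (25.4 ± 0.721), far below their substrate Eif5a.

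Of the other helpers of scanning and recycling, Ddx3x, Abce1 and Denr lay in the range of the eIF2 and eIF2B genes, and Bzw1 lay above it with 161 and 123 TPM. The helicase gene Ddx3x had 96.6 and 70.1 TPM (83.3 ± 18.7). Abce1, the ribosome-splitting ATPase, had 36 and 26.5 TPM (31.2 ± 6.74), and Denr, which acts with the Mcts1 product in recycling, had 34.1 and 24.9 TPM (29.5 ± 6.49). The mitochondrial initiation factors Mtif2 and Mtif3 had 22.3 and 18.9 TPM (20.6 ± 2.35) and 21.2 and 18.6 TPM (19.9 ± 1.86). The termination factor genes Gspt1 and Etf1 had 72.6 and 69.0 TPM (70.8 ± 2.55) and 38.9 and 35.3 TPM (37.1 ± 2.50).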

How the data were processed

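Polyadenylated RNA was measured in 2 libraries of 1 group. Per the deposited file manifests, the authors quantified single-end reads on mm10 with the GENCODE M4 annotation; the aligner and the quantifier were not given in the sources used here. The tables, per the file headers, hold an expected count per gene and transcript, TPM as deposited by the authors, a posterior mean TPM, and the percent of a gene's TPM on each transcript. Names, classes, coordinates and sequences came from GENCODE M21 on the same assembly; 42462 of 43346 Ensembl identifiers matched.

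A gene was detected at 1 TPM in both libraries. For the libraries' ratio, expected counts were rounded and scaled by TMM (edgeR 4.0.16, R 4.3.3), with DESeq2 1.42.0 size factors as an alternative, over genes with 50 scaled counts. The call of genes as apart between the libraries was checked on simulated counts with counting error alone, using the scale factors already set. The estimate of those factors was not tested on simulated data. Sequence sharing was counted in 36-base windows, against the genes of the deposited tables, with Biopython 1.88 for alignments. No condition was compared with another, and exact sign flips of 2 libraries give no p under 0.5, so p-values are left out. Floors and intervals cover counting error only. If the libraries share a culture, their spread is technical.

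The members and lists were chosen with earlier results of these data known. Values were named for ratio pairs, for the subunits of eIF2, eIF2B and eIF3, for the highest and lowest gene of a role, for the eIF4E-binding proteins and for genes over 25% apart. Isoforms were named for up to 8 split genes, for non-coding leads and for leads that differed, and partners up to 4 a list. Eif4a3, Eif4enif1, Eif5b, Eif6 and Eif1ad, the transcripts of Eif4a1 and Eif4a2, and the pseudogenes were named outside these rules, after their values were seen. Protein sequences had been planned and coding sequences are shown in their place. The alternatives were other detection limits, fold limits and scalings, posterior mean TPM, a pseudocount of 1, counts not divided by length, coding transcripts alone and 1 library alone.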

Additional observations from a re-analysis of the deposited data

How the results depend on the processing

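The 48 detected genes were 46 to 48 under other limits and the posterior mean, and 48 with either library left out. The 24 genes at 100 TPM were 21 to 23 with coding transcripts alone or the posterior mean, and 24 to 27 with 1 library left out. Leaving a library out can only keep or raise these counts. Coding transcripts alone can only keep or lower the number at 100 TPM. The 9 genes over 25% apart were 9 under DESeq2 size factors, total counts and a filter of 1 count on average. That filter can only add genes. Their number was also 9 with added pseudogene counts, an alternative chosen after seeing the data. Of the 9, it altered the counts of Eif2s2 and Eif3e alone. The number was 11 by deposited TPM, and 0 at limits of 1.5-fold and 2-fold, which are stricter by construction.

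All 12 log2 ratios kept their direction under the posterior mean. Adding 1 to both TPM values, as in log2(TPM + 1), cannot change which gene is higher. Either library alone could not turn a direction either, since both libraries had the same sign in all 12. Without division by length, 2 reversed: Eif4g1 over Eif4g2 became 0.29 and Eif4b over Eif4h 0.60. In that setting Eif4a1 over Eif4e was 3.69, Eif4e over Eif4e2 -1.56, Eif4g1 over Eif4g3 3.22, Eif4ebp1 over Eif4ebp2 0.73 and Eif4ebp1 over Eif4e 2.44. Eif1 over Eif1b was 1.78, Eif1a over Eif1ax -2.0, Eif5a over Eif5a2 6.36 and Eif3j1 over Eif3j2 -3.24. With coding transcripts alone, Eif1a over Eif1ax reversed to 0.42, Eif4a1 over Eif4a2 was 5.40 and Eif4g1 over Eif4g2 -0.43. Beyond the division by length and the transcripts counted, the cause was not tested. With log2(TPM + 1), Eif4e over Eif4e2 was -2.79, Eif1a over Eif1ax -3.34 and Eif5a over Eif5a2 7.90.

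No paired analysis was possible because both libraries belong to 1 group. With 2 libraries the SD is itself imprecise, and a gene with few counts, such as Eif4ebp3 or Eif3j1, has a wide counting interval.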
